A study of Mus musculus with 6 samples.

Results

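The 5 receptor genes of mouse T helper 9 (Th9) cells described here were chosen by symbol as the chains of the receptors for interleukin 3 (IL-3), interleukin 5 (IL-5) and granulocyte-macrophage colony-stimulating factor (GM-CSF). All 5 symbols, Csf2rb, Csf2rb2, Csf2ra, Il3ra and Il5ra, were found among the 23183 gene symbols of each library, and 4 of them passed the filter on low counts. They were picked with differences of these data between sphingosylphosphorylcholine (SPC) and control already known, so their differences between the groups are given as a description, without a p-value. RNA sequencing compared 3 libraries of cells given SPC, a bioactive lysosphingolipid, at 30 µM with 3 control libraries without it. All 6 came from naive CD4+ T cells of wild-type C57BL/6N mouse spleens, taken on day 3 of culture under Th9 conditions. Both groups received plate-bound anti-CD3e, soluble anti-CD28, IL-4, TGF-β1 and anti-IFN-γ. Libraries of either group carry the numbers 1 to 3 in their titles, and the series text speaks of 3 independent experiments without naming the animals.

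Receptors of this family pair a ligand-binding alpha chain with a beta chain that carries the signal. Csf2rb encodes the common beta chain, which serves the IL-3, IL-5 and GM-CSF receptors, and Csf2ra, Il3ra and Il5ra encode their alpha chains. Csf2rb2 encodes another beta chain, found in mice but not in humans, that works with the IL-3 receptor alpha chain. The beta chain binds the kinase JAK2, which activates the transcription factor STAT5. These receptors are best known on granulocytes, mast cells, macrophages and their precursors, whereas T helper cells are better known as a source of the 3 ligands.

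The beta chain genes lie head to head on chromosome 15 (mm10, GRCm38), Csf2rb2 on the minus strand at 78282507 to 78305721 and Csf2rb on the plus strand at 78325752 to 78353847, with 20030 bases between them. Csf2ra lies on chromosome 19 (61223957 to 61228429, minus strand), Il3ra on chromosome 14 (14346275 to 14356011, plus strand) and Il5ra on chromosome 6 (106710357 to 106749037, minus strand). The coding sequences of Csf2rb2 (2634 bases) and Csf2rb (2688 bases) were identical at 95.2% of the 2628 positions aligned without a gap. Untranslated parts were left out of this alignment. The stretch of 90 aligned coding bases without a gap in which they differ most is shown because reads of the paralogs can be told apart there. It spans coding bases 311 to 400 of Csf2rb2 (chr15:78294345-78294434, minus strand) and 308 to 397 of Csf2rb (chr15:78338897-78338986, plus strand), counted from the start codon, in the extracellular part of the receptor. Capitals mark the 16 positions at which the sequences differ.
Csf2rb2: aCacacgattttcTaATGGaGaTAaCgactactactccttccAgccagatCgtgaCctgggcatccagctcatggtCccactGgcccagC
Csf2rb: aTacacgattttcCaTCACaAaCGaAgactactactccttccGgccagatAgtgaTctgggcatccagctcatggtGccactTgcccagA

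The longest stretch of the coding alignment without a difference is shown because a read inside it cannot be assigned to either paralog. It is 242 bases long, lies in the part that encodes the cytoplasmic tail, and spans coding bases 2083 to 2324 of both genes (chr15:78284630-78284871, minus strand, for Csf2rb2 and chr15:78348577-78348818, plus strand, for Csf2rb).
Both genes: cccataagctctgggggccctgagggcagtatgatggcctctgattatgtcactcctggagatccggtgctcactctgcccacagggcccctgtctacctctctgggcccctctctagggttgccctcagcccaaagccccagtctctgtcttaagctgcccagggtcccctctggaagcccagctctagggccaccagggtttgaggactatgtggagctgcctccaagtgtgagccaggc
Of the windows of 50 bases in the longest coding transcript, 18.43% of those of Csf2rb and 19.44% of those of Csf2rb2 also occurred in a transcript of another gene, namely the paralog or the microRNA genes Mir7676-1 and Mir7676-2 that lie within the pair. At 100 bases, where the paralog was the single other gene, the shares were 6.96% and 7.20%. No window of Csf2ra or Il3ra was shared at 50 bases, and 0.94% of those of Il5ra were. How reads that fit both genes were counted is not given in the sources used here, so the separate counts of the pair are uncertain to that extent. All sequences are from GENCODE M21.

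**Figure D1:**
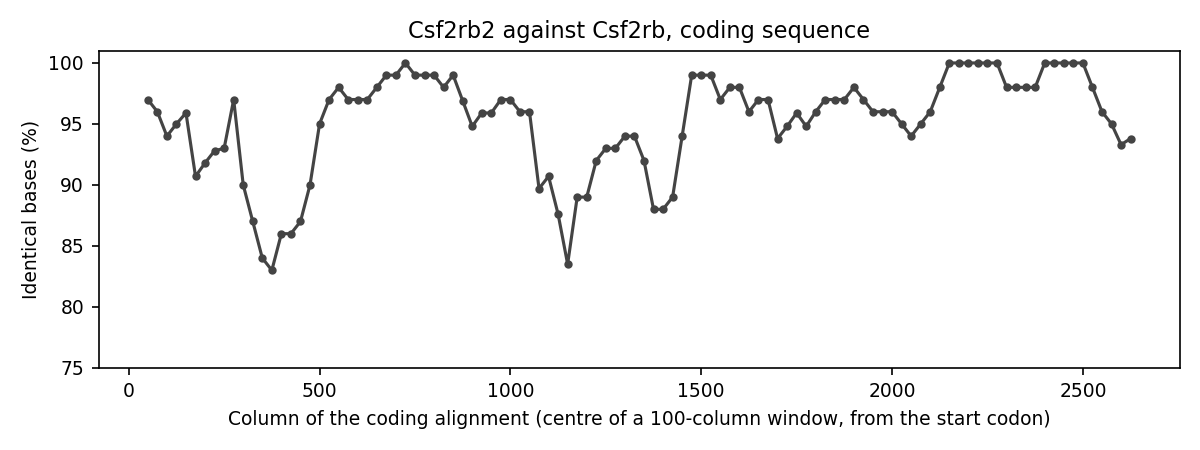
Identical bases between the coding sequences of Csf2rb2 and Csf2rb, in percent (vertical axis, which starts at 75%), along the alignment in windows of 100 columns (horizontal axis, centre of each window). Identity was 100% in several windows, most of them towards the 3′ end, and lowest at 83.0% in the window centred on column 375.

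Csf2rb was lower in the SPC libraries. It had 49, 51 and 51 counts in the SPC libraries 1, 2 and 3, or 1.49, 1.95 and 2.22 CPM (read counts scaled to a common library size with edgeR's TMM factors). It had 171, 197 and 195 counts in the control libraries 1, 2 and 3, or 5.85, 6.53 and 8.86 CPM. Every SPC library lay below every control library, and the gap between the groups was wider than the spread within either. Exact 95% Poisson intervals of the counts, which cover counting error only, reached at most 67.06 in an SPC library and no lower than 146.3 in a control library. Scaled to CPM, since the libraries differ in depth, these limits were 2.91 in SPC library 3 and 5.00 in control library 1. The means were 1.89 ± 0.368 CPM with SPC and 7.08 ± 1.58 CPM in control (SD, n = 3 each), a log2 fold change of -1.91 ± 0.22 (SE), or 3.77-fold lower with SPC. The same-numbered libraries differed by -1.92, -1.71 and -1.96 on the log2 CPM scale. Ranked by log2 fold change, Csf2rb was number 9 from the lowest of the 12226 tested genes. The choice of the receptor genes drew on this contrast, so nothing is read from that rank.

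The paralog Csf2rb2 had few counts. The SPC libraries 1, 2 and 3 held 8, 5 and 9 counts (0.243, 0.191 and 0.391 CPM) and the control libraries 17, 8 and 21 counts (0.581, 0.265 and 0.954 CPM). The groups overlapped, since control library 2 lay below SPC library 3. Its log2 fold change was -1.09 ± 0.53 (SE), and the same-numbered libraries differed by -1.05, -0.36 and -1.15 on the log2 scale. Without control library 3 the log2 fold change was -0.63.

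The alpha chain genes overlapped between the groups. Il3ra, the IL-3 binding chain, had 8.68, 5.93 and 7.21 CPM in the SPC libraries 1, 2 and 3 and 5.20, 5.77 and 7.95 CPM in the control libraries 1, 2 and 3. Its log2 fold change was 0.22 ± 0.20 (SE), with differences of 0.73, 0.04 and -0.14 between same-numbered libraries. SPC library 1 was the highest of the 6, and without it the log2 fold change was 0.07. Without both libraries numbered 1 it was -0.06.

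Csf2ra, the GM-CSF binding chain, had 5.98, 7.50 and 6.21 CPM in the SPC libraries 1, 2 and 3 and 5.68, 6.04 and 5.86 CPM in the control libraries 1, 2 and 3. Its log2 fold change was 0.16 ± 0.14 (SE), with differences of 0.07, 0.31 and 0.08 between same-numbered libraries. All 3 pairs were thus higher with SPC, and the control libraries lay closer together than the SPC libraries. Without SPC library 2, the highest of the 6, it was 0.06.

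Il5ra, the IL-5 binding chain, had 1, 0 and 1 counts in the SPC libraries and 1, 0 and 0 in the control libraries. Both groups lay under the level of 3 counts, which corresponds to 0.0911 to 0.136 CPM in these libraries, so no fold is given and the gene was not tested.

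**Figure D2:**
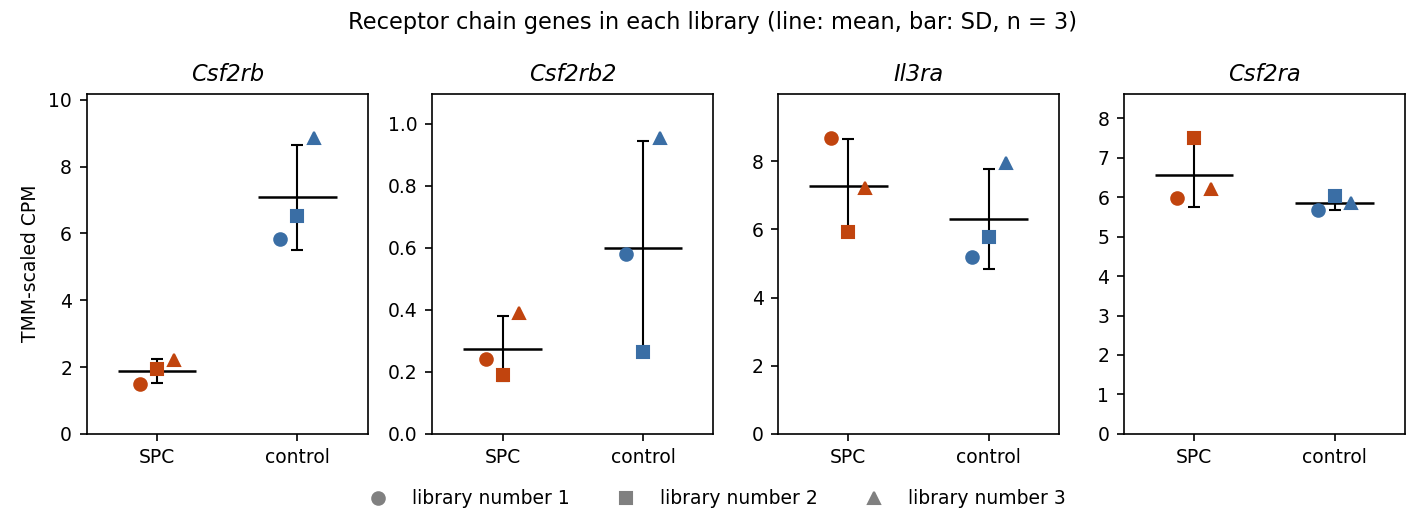
TMM-scaled CPM of Csf2rb, Csf2rb2, Il3ra and Csf2ra in the 3 SPC and 3 control libraries (point shape: library number; line: mean; bar: SD). The vertical axes start at 0 and differ between genes. The SPC libraries of Csf2rb sit between 1.49 and 2.22 CPM, all below the control libraries, while the groups of the other 3 genes overlap.

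Of the 4 tested genes, Csf2rb was the 1 that edgeR called at an adjusted p under 0.05. Of all tested genes 0.483% were called, 0.155% as lower and 0.327% as higher with SPC. With the library number as a block Csf2rb was again the 1 called of the 4, where 7.08% of all tested genes were (3.07% lower and 4.02% higher with SPC). The call of Csf2rb was lost without control library 2 or SPC library 2, when 6 genes in all were called each time, and without both libraries numbered 1 or 2, when 15 and 0 genes were. Csf2rb was also the 1 of the 4 whose SPC libraries all lay below the control libraries, as did those of 7.8% of all tested genes, while those of 8.67% lay all above. Since the choice of these genes drew on this contrast, nothing is read from these counts.

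Levels can be compared between genes per length of exons, as CPM per kilobase of the union of annotated exons. With SPC the order was Il3ra (2.45 ± 0.464), Csf2ra (2.29 ± 0.285), Csf2rb (0.259 ± 0.0506) and Csf2rb2 (0.0580 ± 0.0219), followed by Il5ra. In control it was Il3ra (2.13 ± 0.490), Csf2ra (2.04 ± 0.0626), Csf2rb (0.973 ± 0.217) and Csf2rb2 (0.127 ± 0.0728), again with Il5ra last. Il3ra and Csf2ra overlapped in both groups and so had no order beyond their spread. Csf2rb lay below both alpha chains and above Csf2rb2 in every library of either group. The same order was found when levels were set per base of the longest transcript or of the coding sequence.

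Set against its alpha chains, Csf2rb was lower with SPC in each library. The log2 ratio of Csf2rb to Il3ra per exon length was -3.83, -2.89 and -2.99 in the SPC libraries and -1.13, -1.12 and -1.14 in the control libraries. The control libraries were almost alike in this ratio, and their range did not meet that of the SPC libraries. The log2 ratio of Csf2rb to Csf2ra was -3.34, -3.27 and -2.82 in the SPC libraries and -1.30, -1.23 and -0.75 in the control libraries. The mean log2 ratio of Csf2ra to Il3ra was near 0 in both groups, -0.09 ± 0.44 with SPC and -0.03 ± 0.31 in control (SD, n = 3 each).

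Between the paralogs, the log2 ratio of Csf2rb2 to Csf2rb per exon length, with a pseudocount of 0.5 counts, was -1.92, -2.61 and -1.82 in the SPC libraries and -2.67, -3.92 and -2.57 in the control libraries. The means were -2.12 ± 0.43 with SPC and -3.05 ± 0.75 in control (SD, n = 3 each), and the groups overlapped. Within each of the 3 same-numbered pairs the ratio was higher in the SPC library. Of the counts of the pair, Csf2rb2 took 14.0%, 8.93% and 15% in the SPC libraries and 9.04%, 3.90% and 9.72% in the control libraries. The exact 95% binomial interval was 7.10% to 26.6% in SPC library 3 and 6.12% to 14.5% in control library 3. If the reads of Csf2rb that fall in windows of 50 bases shared with other genes were set to 1 side, they would number 9.03 to 9.40 per SPC library and 31.5 to 36.3 per control library. The count of Csf2rb2 was below that number in every library of both groups. With windows of 100 bases the number was 3.41 to 3.55 per SPC library and 11.9 to 13.7 per control library, and the count of Csf2rb2 was above it in each library but control library 2. These numbers are the count of Csf2rb times the share of shared windows. They take reads as spread evenly over the longest coding transcript and as long as the window. They also take the count as holding all shared reads, and none of this was tested. With both rows summed before the fit, the log2 fold change of the pair was -1.84.

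**Figure D3:**
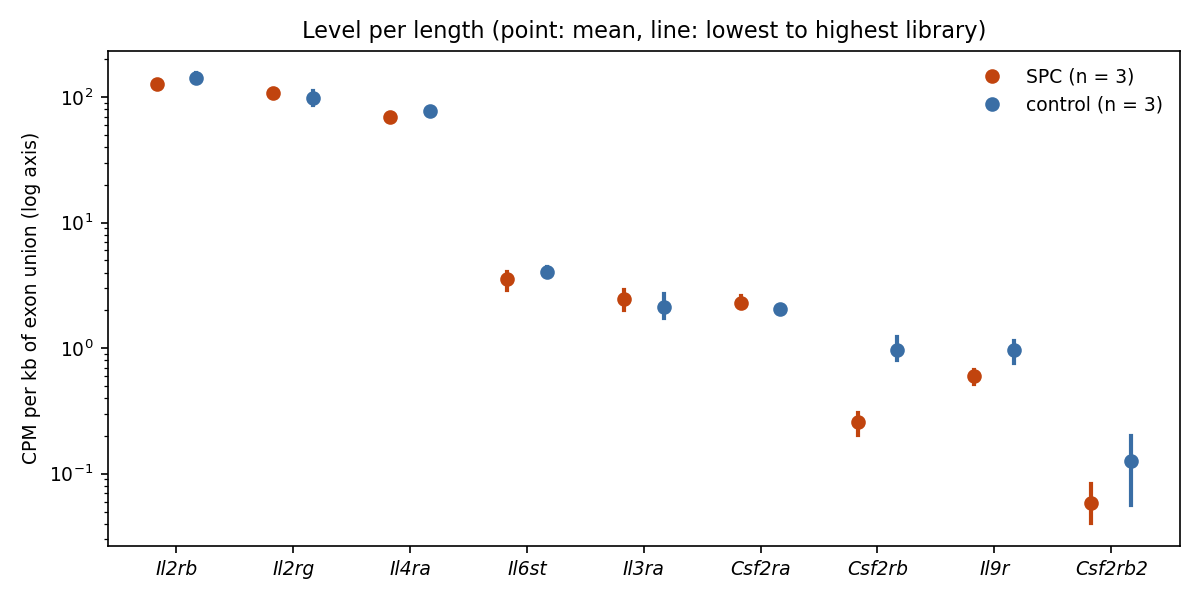
Level per length (CPM per kilobase of exon union, log axis) of 4 of the receptor genes and 5 other cytokine receptor chains (point: mean; line: lowest to highest of 3 libraries; SPC in orange, left, and control in blue, right). Csf2rb had 0.259 with SPC and 0.973 in control, and Il5ra, at 0 to 1 count per library, is not drawn.

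All 5 receptor genes had lower mean levels than Il2rb, Il2rg, Il4ra and Il6st in both groups. Il4ra, the IL-4 binding chain, stood at 70.04 ± 3.93 CPM per kilobase with SPC and 78.2 ± 1.52 in control. Il2rb and Il2rg, chains of the IL-2 receptor, stood at 126.9 ± 5.16 and 108.6 ± 7.33 CPM per kilobase with SPC and at 141.6 ± 11.7 and 99.2 ± 12.3 in control. Il9r, the ligand-binding chain of the IL-9 receptor, stood at 0.604 ± 0.0769 with SPC and 0.962 ± 0.188 in control, which in control was close to Csf2rb. None of these 5 chains was called by edgeR, DESeq2 or limma-voom, and 2 had an unadjusted p under 0.05 in edgeR. Those were Il9r (log2 fold change -0.67 ± 0.20, adjusted p = 0.241, or 0.0187 with the library number as a block, later given as block) and Il4ra (-0.16 ± 0.07, adjusted p = 0.466). Il2rb had -0.16 ± 0.08 (adjusted p = 0.558) and Il6st, the signalling chain of the IL-6 family, -0.20 ± 0.12 (adjusted p = 0.680).

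The numbers of the libraries, unlike the SPC contrast, had no part in the choice of the genes. In both groups Csf2rb was highest in the library numbered 3, and so was Csf2rb2. A joint test of the library numbers beside the group (edgeR) called none of the 4 tested genes, against 10.9% of all tested genes. Its adjusted p was 0.0989 for Csf2rb, 0.129 for Csf2rb2, 0.383 for Il3ra and 0.501 for Csf2ra. At an unadjusted p under 0.05 there were 2, Csf2rb and Csf2rb2, and DESeq2 and limma-voom also called 0 of the 4.

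Markers were read beside these levels, since in bulk samples fewer cells of a type and less RNA per cell cannot be told apart. The 8 T cell markers summed to 1640 to 1810 CPM with SPC and 1660 to 1710 CPM in control, and none was called in edgeR (1 each way in DESeq2, 0 in limma-voom, 2 at an unadjusted p under 0.05). With the block edgeR called Cd5 higher (log2 fold change 0.36 ± 0.07, adjusted p = 0.0597, block 0.00157) and Cd2 lower (-0.44 ± 0.08, adjusted p = 0.0598, block 0.00144). Of 9 macrophage and monocyte markers 7 had a count, and their sum was 1.84 to 2.39 CPM with SPC and 1.96 to 2.36 CPM in control, with Fcgr1 and C1qa at 0. Among them Adgre1, which encodes the macrophage antigen F4/80, had lower counts with SPC, as Csf2rb did, with 6, 4 and 5 counts in the SPC libraries and 12, 21 and 18 in the control libraries (log2 fold change -1.77 ± 0.42, adjusted p = 0.130, block 0.0315). Its part in the Csf2rb result was not tested. Of 10 mast cell and basophil markers 6 were at 0 in all libraries, including Mcpt8, Cpa3 and Fcer1a, and the sum was 0.334 to 0.651 CPM with SPC and 0.227 to 0.479 CPM in control.

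The neutrophil sum was 1.35 to 1.61 CPM with SPC and 1.36 to 2.70 CPM in control, with S100a8, Elane, Camp and Retnlg at 0 of 8 markers. The eosinophil sum of 6 markers was 0.217 to 0.459 CPM with SPC and 0.182 to 0.308 CPM in control, with none at 0 throughout. Dendritic cell markers summed to 4.16 to 6.34 CPM with SPC and 2.63 to 3.68 CPM in control, with Clec9a and Cd209a at 0 of 7. These sums did not overlap, and Zbtb46, which made up most of them, was called higher with the block (0.65 ± 0.22, adjusted p = 0.331, block 0.0427, edgeR). Its part in the results on the receptor genes was not tested. B cell markers summed to 5.17 to 6.39 CPM with SPC and 4.55 to 6.45 CPM in control, with Ms4a1 at 0 of 6. The NK and CD8 T cell markers summed to 3.22 to 4.13 CPM with SPC and 3.90 to 4.28 CPM in control, with Ncr1 at 0 of 5. The Th9 and Th2 genes summed to 3040 to 3580 CPM with SPC and 2380 to 2410 CPM in control, and these sums did not overlap. Of these 6 genes edgeR called Il9 higher, DESeq2 called 2, limma-voom 1 and edgeR with the block 3, and 4 had an unadjusted p under 0.05 in edgeR. The 3 called with the block were Il9 (1.08 ± 0.13, adjusted p = 0.0189, block 0.00115), Il13 (0.66 ± 0.12, adjusted p = 0.0530, block 0.000555) and Irf4 (0.21 ± 0.06, adjusted p = 0.247, block 0.0184). Il9 and Irf4 made up most of the Th9 and Th2 sums. Not all genes of this list were higher, since Gata3 and Il4 had lower means with SPC. Gata3 had 232.57 ± 16.57 CPM with SPC and 261.25 ± 15.96 CPM in control. Il4 had 13.02 ± 1.66 CPM with SPC and 16.395 ± 0.739 CPM in control.

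The genes around the beta chain pair were measured in the same way. Within 200 kb on either side lie 12 other protein-coding genes, and 8 of them passed the filter. None was called by edgeR, with or without the block, by DESeq2 or by limma-voom. Without the block none had an unadjusted p under 0.05, and with it Il2rb had an unadjusted p of 0.00827 and an adjusted p of 0.0847 (edgeR). Their log2 fold changes lay between -0.16 and 0.26. Ncf4, a subunit gene of the phagocyte NADPH oxidase and the nearest protein-coding neighbour of Csf2rb2, had 42.9 ± 0.855 CPM with SPC and 40.3 ± 1.34 CPM in control (0.09 ± 0.07, adjusted p = 0.748). Tst and Mpst, sulfurtransferase genes on the side of Csf2rb, had -0.12 ± 0.23 and -0.15 ± 0.10 (adjusted p = 0.916 and 0.680), and Kctd17 had -0.10 ± 0.08 (adjusted p = 0.770). Ift27, Tmprss6 and C1qtnf6 had 0.11 ± 0.11, 0.24 ± 0.34 and 0.26 ± 0.19 (adjusted p = 0.832, 0.882 and 0.730), and Il2rb, given above, lies in the same window. Cacng2, Pvalb, Tex33 and Sstr3 had at most 2 counts in any library.

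**Figure D4:**
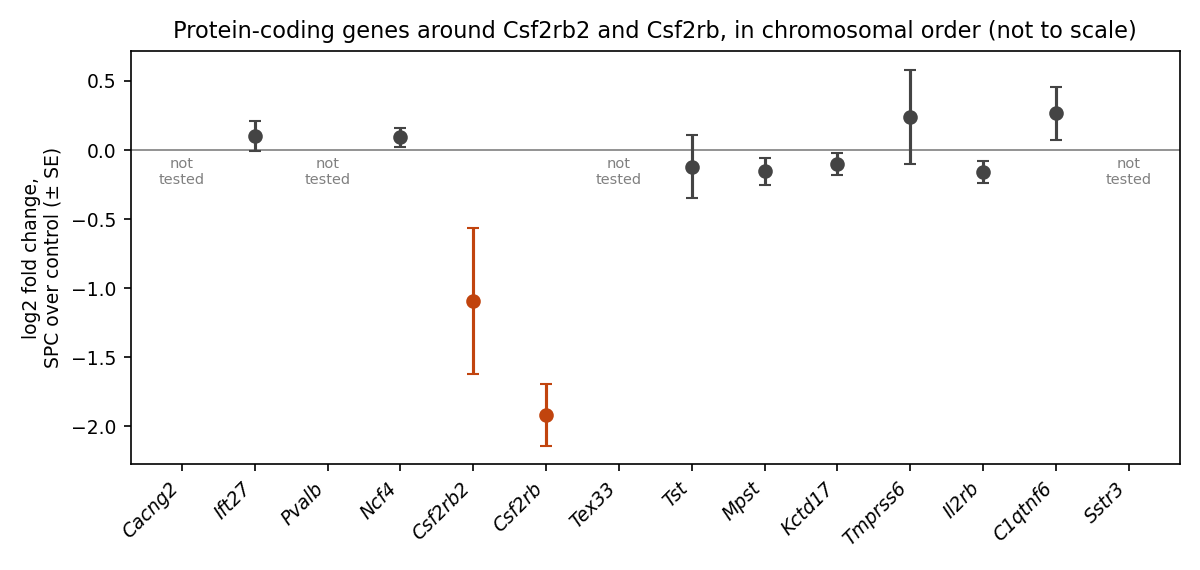
Log2 fold change of SPC over control (± SE, vertical axis) of the protein-coding genes around Csf2rb2 and Csf2rb, in chromosomal order (horizontal axis, not to scale). The beta chain pair, in orange, stands at -1.09 and -1.91, and the 8 other tested genes lie between -0.16 and 0.26.

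All 3 ligands were expressed. Csf2, which encodes GM-CSF, had 10.5, 8.31 and 7.52 CPM in the SPC libraries and 7.59, 7.13 and 4.27 CPM in the control libraries (log2 fold change 0.47 ± 0.22, adjusted p = 0.537). Il3 had 3.25, 3.14 and 3.61 CPM in the SPC libraries and 4.86, 4.24 and 2.73 CPM in the control libraries (-0.25 ± 0.22, adjusted p = 0.791). Il5, at 41.4 ± 5.73 CPM with SPC and 40.7 ± 8.29 CPM in control, had 0.03 ± 0.15 (adjusted p = 0.978). For each ligand the groups overlapped. None was called by edgeR, with or without the block, by DESeq2 or by limma-voom. Without the block none had an unadjusted p under 0.05, and with it Csf2, which was higher with SPC in each of the 3 same-numbered pairs, had an unadjusted p of 0.00362 and an adjusted p of 0.0505 (edgeR).

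Of the 54 listed ligand and signalling genes 53 were tested, and 2 rose and 1 fell (edgeR, adjusted p under 0.05), where 0.327% of all tested genes rose and 0.155% fell. In the core of the pathway none of 5 genes was called, also by DESeq2 and limma-voom, with 1 at an unadjusted p under 0.05 and a median log2 fold change of 0.13, against 0.00193 over all tested genes. Stat5a, the STAT most tied to these receptors together with Stat5b, had 549 ± 57.8 CPM with SPC and 450 ± 17.9 CPM in control (0.29 ± 0.09, adjusted p = 0.244, block 0.00849). Jak2, the kinase bound to the beta chain, had 0.14 ± 0.09 (adjusted p = 0.691), and Stat5b 0.13 ± 0.12 (adjusted p = 0.813). Stat3 had -0.22 ± 0.15 (adjusted p = 0.703, block 0.0188).

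Of the 22 tested adaptor and kinase genes none was called, also by DESeq2 and limma-voom, with 2 at an unadjusted p under 0.05 and a median of -0.04. Pik3cd, the catalytic delta subunit of phosphoinositide 3-kinase, had 0.28 ± 0.10 (adjusted p = 0.362, block 0.00941) and Pik3cb, the beta subunit, -0.25 ± 0.11 (adjusted p = 0.462). Sdcbp, which encodes syntenin, a binding partner of the IL-5 receptor alpha chain, had -0.15 ± 0.07 (adjusted p = 0.555), and Sos1, an activator of Ras, -0.26 ± 0.15 (adjusted p = 0.634).

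Among 10 tested inhibitors of cytokine signalling 1 fell and none rose (2 and 0 in DESeq2), with a median of -0.15. Cblb, a ubiquitin ligase that restrains T cell activation, had 54.3, 65.5 and 64.5 CPM in the SPC libraries and 86.6, 101.2 and 108.6 CPM in the control libraries (-0.69 ± 0.11, adjusted p = 0.0412). The groups did not overlap. Socs1, a suppressor of cytokine signalling, had 97.6, 92.9 and 91.8 CPM in the SPC libraries and 118.9, 123.9 and 125.3 CPM in the control libraries (-0.38 ± 0.07, adjusted p = 0.0514, block 0.00226). These groups did not overlap either. Socs3, of the same family, had -0.65 ± 0.31 (adjusted p = 0.544, block 0.00328). Inpp5d, which encodes the lipid phosphatase SHIP-1, had -0.15 ± 0.07 (adjusted p = 0.511) and Ptpn2, a phosphatase that acts on JAK and STAT proteins, -0.14 ± 0.08 (adjusted p = 0.601).

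Among 13 tested STAT5 and growth target genes 2 rose and none fell, with a median of 0.09. Id1, an inhibitor of DNA-binding factors, had 41.3, 38.5 and 40.7 CPM in the SPC libraries and 24.1, 26.4 and 28.6 CPM in the control libraries (0.61 ± 0.09, adjusted p = 0.0339). Bcl2l1, which encodes the survival protein Bcl-xL, had 494, 412 and 407 CPM in the SPC libraries and 313, 283 and 275 CPM in the control libraries (0.59 ± 0.09, adjusted p = 0.0434). Neither overlapped between the groups. Ccnd3, a D-type cyclin, and Il2ra, the alpha chain of the IL-2 receptor, had -0.20 ± 0.07 and -0.23 ± 0.11 (adjusted p = 0.329 and 0.531, block 0.0407 and 0.0344). Pim1, a survival kinase, had 0.28 ± 0.14 (adjusted p = 0.568, block 0.00660), and Egr1, an early growth response factor, had 0.10 ± 0.07 (adjusted p = 0.729). With the block the pathway counts were 1 higher and 1 lower in the core, 1 higher among adaptors, 3 lower among inhibitors, and 4 higher and 2 lower among targets, where 4.02% of all tested genes were called higher and 3.07% lower.

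Without the block the 3 calls each depended on single libraries. With the block and no library left out, the adjusted p of Id1, Bcl2l1 and Cblb was 0.00088, 7.18e-05 and 7.02e-05 (edgeR). The fits with a library left out had no block. Without control library 2 the adjusted p of Id1, Bcl2l1 and Cblb was 0.199, 0.247 and 0.219, and without SPC library 2 it was 0.143, 0.150 and 0.152 (edgeR). In both of these fits 6 genes in all were called. Id1 was also lost without control library 1 (0.0799) and SPC library 3 (0.0548), Bcl2l1 without control libraries 1 and 3 (0.0686 and 0.112), and Cblb without control library 3 and SPC libraries 1 and 3 (0.0863, 0.0525 and 0.0548). Their log2 fold changes stayed between 0.56 and 0.68, 0.49 and 0.66, and -0.76 and -0.60 when a library was left out.

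**Figure D5:**
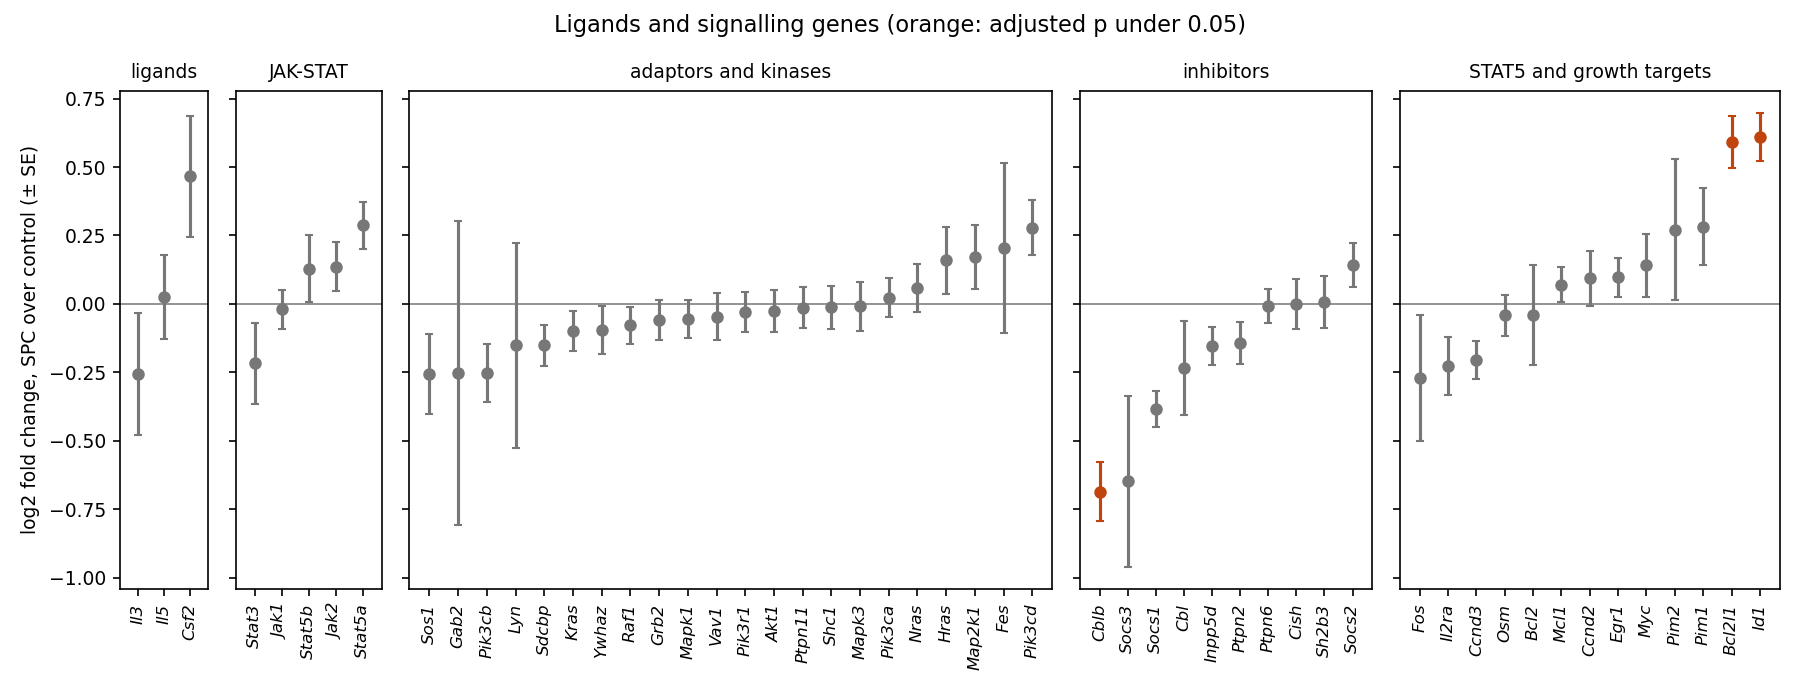
Log2 fold change of SPC over control (± SE, vertical axis) of the tested ligand and signalling genes, ordered by value within each list (horizontal axis). The called genes, in orange, are Cblb at -0.69 and Bcl2l1 and Id1 at 0.59 and 0.61.

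Finally, the tested genes whose log2 CPM ran most like that of each receptor gene over the 6 libraries are given by Pearson's r, as a description in which the groups and the experiments are shared by all points. For Csf2rb these were Lrrc20 (r = 0.995), Eml5 (0.994), Zswim3 (0.993), Ddx58 (0.992) and Dgkg (0.992). Dgkg had few counts, with means of 0.295 CPM with SPC and 0.421 CPM in control. All 5 of these genes, like 7.8% of all tested genes, had SPC libraries below the control libraries. They were picked for running like Csf2rb, whose groups did not overlap, so nothing is read from this. Log2 fold changes of the 5 lay from -0.53 to -0.25, and of them Eml5 was called (adjusted p = 0.0469, edgeR). Csf2rb2 had r = 0.721 with Csf2rb. For Il3ra they were N4bp3 (0.999), Usf1 (0.996), Rab4b (0.993), Vrk3 (0.988) and Oas1c (0.988), and for Csf2ra they included Zfp646 (0.974), Cenpq (0.972), Lamp2 (0.967) and Llgl2 (0.965), none of which was called.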

How the data were processed

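The submitters' processing notes name the aligner TopHat and the build mm10. The aligner's version, the counting program, its annotation and its strand setting were not given in the sources used here. Libraries came from a kit that marks strand, per the labels' protocols. The authors deposited raw counts for each gene symbol, with total counts of 22002050 to 33049997 per library.

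Counts were tested with edgeR 4.0.16 (R 4.3.3, quasi-likelihood F test, robust, TMM, group as the single term). filterByExpr (minimum count 10, minimum total 15) kept 12226 genes. Adjusted p-values are Benjamini-Hochberg over these, called under 0.05. Log2 fold changes are SPC over control, with an SE of their absolute value over the root of F. Log2 CPM uses a prior count of 2. DESeq2 1.42.0 and limma-voom (limma 3.58.1) were alternatives. The scripts were tested on simulated counts. For SPC against control 94 of 100 genes changed 2-fold were called, and 15 of 208 calls were unchanged genes. For library numbers 89 of 100 were called, and 24 of 210 calls were unchanged genes. The simulation took its dispersion from the fit with the block and, for the SPC test, held no difference between library numbers. Its rates therefore need not hold for these data. Whether the libraries of a group came from separate animals is not stated, so p-values measure the spread between these libraries.

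Numbers in the titles and 3 independent experiments in the series text point to pairs. Deviations of same-numbered libraries from their group means correlated at 0.413, 0.208 and 0.508 across genes, all over 0.1, so the value with the number as a block is given for each named gene whose call it changes. No libraries of a group agreed within counting noise (chi-square per degree of freedom of at least 4.82).

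Symbols were matched to GENCODE M21 (98.50%). The receptor genes and all lists were chosen with earlier results of these data known. Named genes are the receptor genes, the ligands, the called genes and up to 4 others of smallest p per list, the neighbours within 200 kb, and the 5 genes of highest correlation for receptor genes averaging 1 CPM or more, of which 1 is not reported here. Adgre1, Il9 and the other markers named were chosen after their values were seen.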

Additional observations from a re-analysis of the deposited data

How the results depend on the processing

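The log2 fold change of Csf2rb stayed between -2.04 and -1.72 over 21 alternatives (scaling, filter, tool, left-out libraries, the block, and both paralogs summed). That of Csf2rb2 lay between -1.47 and -0.63 over 15, and Csf2rb2 failed the filter of 1 CPM in 3 libraries and the filter without both libraries numbered 1 or 3. That of Csf2ra lay between 0.06 and 0.23 over 20, and that of Il3ra between -0.06 and 0.42 over 20. Each moved by less than the spread between replicates.

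Of all tested genes, 59 were called in edgeR. The count was 147 without a filter on low counts, 282 with DESeq2 and 866 with the replicate number as a block. Leaving out 1 library gave 6 to 66, and both libraries of a number 0 to 38. With the block and both libraries numbered 1, 2 or 3 left out it was 2112, 699 and 562. The count of 0, without both libraries numbered 2, stood beside 502 genes at an unadjusted p under 0.05. The test of library numbers called 1327 genes, 2059 without a filter and 544 to 5832 when a library was left out. The causes were not tested.

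The mean log2 ratio of Csf2rb2 to Csf2rb with SPC was -2.69 per length of the longest transcript and -2.71 per coding length. The order of levels held in 10 of 10 ranks, and in 8 without control library 3 or SPC library 1, where Il3ra and Csf2ra changed places. At 5 to 21 counts per library, depth limits what can be said of Csf2rb2, and at 0 to 1 count of Il5ra.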
